A study of Mus musculus with 12 samples.

Results

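A set of 34 autophagy genes was examined in mouse rods and retina, among 56748 genes measured. They were taken as the rows whose gene name is on a list of 34 names, and each name matched 1 row. The list spans the pathway: 5 genes of the initiation kinase complex, 2 of the PI3-kinase complex, 6 for membrane supply and phosphoinositide binding, 7 of the conjugation machinery, 4 ATG4 proteases, 5 ATG8 proteins, 2 cargo receptors and 3 for the lysosome and its regulator. Macroautophagy encloses cytoplasm in a double membrane, the autophagosome, and delivers it to the lysosome for degradation. A kinase complex around ULK1 starts the process, a PI3-kinase complex containing Beclin 1 marks the membrane, and a pair of ubiquitin-like conjugation systems attaches the ATG8 proteins to it. Cargo receptors then link tagged cargo to the ATG8 proteins. In photoreceptors the pathway is known for its part in protein turnover and in survival under stress.

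The study asked what loss of the M2 form of pyruvate kinase does in rods. Translating ribosome affinity purification (TRAP) was used to collect ribosome-bound mRNA from rods, and total RNA of the retina was sequenced beside it (bead and input libraries, called rods and retina here). All mice were homozygous for Ribo-Tag, an allele through which Cre puts an HA tag on a ribosomal protein, and all carried i75Cre, in which a rhodopsin promoter drives Cre in rods. Controls (Pkm2 Rodhet, designated WT) carried a floxed Pkm2 on 1 allele, so they had also lost an allele in rods. In Pkm2 Rodko mice both copies were floxed. The description deposited with the data gives an age of 2 weeks and the methods 2 months. Each of the 4 groups held 3 libraries of between 13458890 and 22790074 reads. Nothing in the labels says whether animals were pooled for a library, so p-values measure the spread between libraries. Cells other than rods kept Pkm2 and contributed to the retina libraries, as did the rods themselves.

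Levels are given as TMM-scaled reads, which are the reads of a library brought to the average size of the 12 libraries with edgeR's trimmed mean of M values. Differences are log2 ratios from limma with their standard error (SE), and adjusted p-values are Benjamini-Hochberg values over all genes tested. Pkm, the targeted locus, was counted as 1 gene for both of its forms. Its levels were 66618, 65101 and 70318 in control rods, 30486, 28578 and 28253 in Rodko rods, 26619, 28897 and 26666 in control retina and 16978, 17094 and 17531 in Rodko retina. The Rodko libraries lay below the controls in both fractions, with a log2 difference of −1.20 (SE 0.084, adjusted p = 5.36e-05, limma) in rods and −0.65 (SE 0.074, adjusted p = 0.0219, limma) in retina. Against retina in control mice, rods held more of 20 of 20 rod marker genes (median log2 difference 1.91) and less of the Müller glia markers (12 of 12, median −2.87), the amacrine markers (12 of 12, −3.12) and the ganglion cell markers (12 of 12, −3.02). Cone and bipolar markers were reduced less. Summed TMM-scaled reads of the cone markers ran from 14874 to 21087 in control rods and from 23377 to 25333 in control retina. For bipolar markers the sums were 6477 to 8055 and 19445 to 20238, and for Müller glia 11725 to 14874 and 83994 to 96653. None of the markers listed for these cells was at 0 in all 12 libraries, rods and retina together.

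Of the 34 genes, 32 had at least 10 reads in every rod library. The exceptions were Atg9b, with 2 to 10 reads in a rod library, and Atg16l2, with 7 to 20. To compare genes with each other, TMM-scaled reads were divided by the length of the principal transcript. They were also divided by the mean TMM-scaled total of the 12 libraries, the same constant for every library (RPKM, on the TMM scale). Comparisons of rods with retina in these units therefore rest on TMM. In control rods Lamp1, a lysosomal membrane glycoprotein, was the highest at 179 ± 5.88 (SD, n = 3), followed by Gabarapl1 (149 ± 3.86), the cargo receptor Optn (140 ± 2.21), Gabarapl2 (116 ± 9.41) and Map1lc3b (99.9 ± 9.33). The ranges of these 5 neighbours did not overlap. Gabarap came next at 59.6 ± 8.81, so that 4 of the 5 ATG8 genes stood among the 6 highest.

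In control retina the order began with Gabarapl1 (120 ± 10.5), Lamp1 (88.4 ± 1.56) and the cargo receptor Sqstm1 (81.4 ± 4.48). Optn was the eighth gene there at 48.9 ± 7.01 RPKM, and Sqstm1 was the tenth in control rods at 28.9 ± 1.56, where its range overlapped those of Atg4c (30.2 ± 1.53) and Atg12 (28.5 ± 0.508). From Atg16l1 down to Atg2b the ranges of all neighbours in rods overlapped. At the bottom were Tfeb, the transcription factor that controls lysosomal genes (2.51 ± 0.191), Atg16l2 (0.119 ± 0.0239) and Atg9b (0.106 ± 0.0997). With the length of all annotated exons in place of the principal transcript the first 4 genes in rods kept their ranks, while Wipi2 moved from rank 8 to 21.

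**Figure D1:**
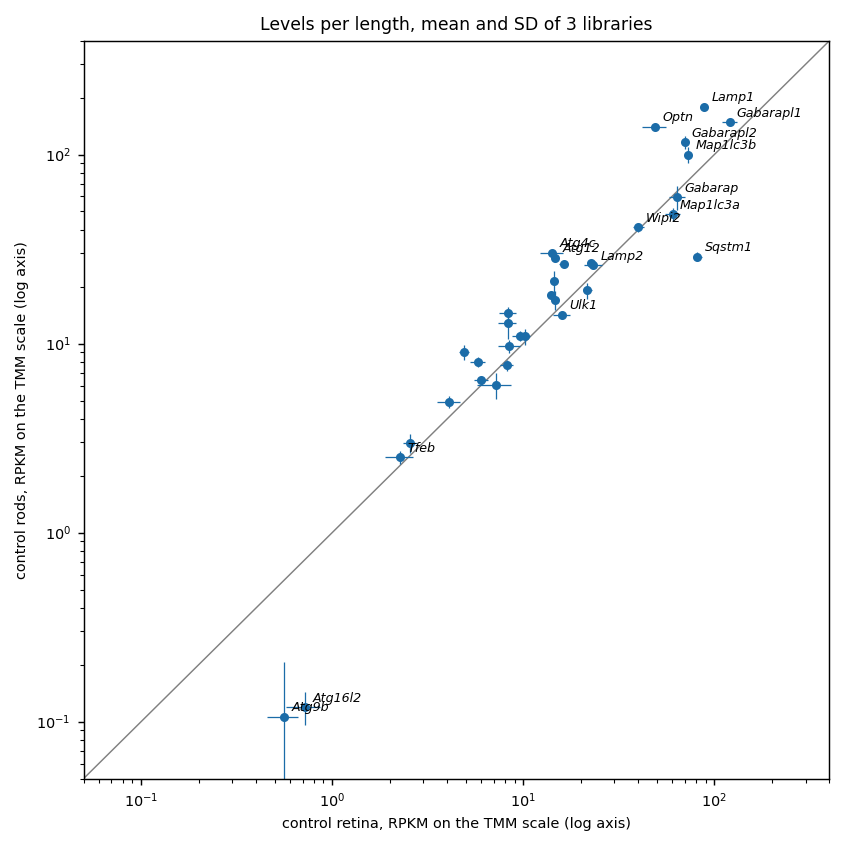
Levels per length of the 34 genes in control retina (x axis) and control rods (y axis), both as RPKM on the TMM scale on log axes. Points are means and bars SD of 3 libraries, and the line marks equal levels on the TMM scale. Optn (140 in rods, 48.9 in retina) lies above the line and Sqstm1 (28.9 and 81.4) below it.

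How many genes were called higher or lower in rods than in retina depended on how the fractions were put on 1 scale. With TMM, 15 of the 34 were higher and 4 lower in control mice, against 24.6% and 37.3% of all genes tested. In Rodko mice 19 were higher and 5 lower, against 25.5% and 37.5%. Scaled by total reads, 5 were higher and 19 lower in control mice (9.02% and 52.1% of all genes), and 5 higher and 16 lower in Rodko mice (9.04% and 51.8%). The median log2 difference of the 34 genes in control mice was 0.21 with TMM and −0.34 with total reads, while the median of all genes was −0.39 and −0.84. Among genes with at least 10 reads in every library the median of the 32 genes of the list that remained was 0.23 and that of all genes 0.22. With that filter and TMM, 16 of the 32 were higher and 2 lower in control mice, against 5911 and 3811 of 13211 genes. In Rodko mice 20 of 33 were higher and 4 lower, against 6082 and 3781 of 13319 genes. The larger share of higher calls in the list was thus not seen against genes with such reads.

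A call in 1 direction under TMM, RLE, total reads and the deposited values, in both genotypes, was reached by 8 genes. Optn, Lamp1, Atg4c and Atg12 were higher in rods, where 7.12% of 22822 genes met the same rule. Sqstm1, Map1lc3a, Atg16l2 and Atg9b were lower, against 33.8% of the genes. Calls reached in 1 genotype only are not shown to differ between genotypes, since the interaction test called none of the 34 genes. A difference between the fractions combines cell type with ribosome loading, which cannot be told apart here, and in such bulk samples fewer cells of a type and less RNA per cell cannot be told apart either.

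**Figure D2:**
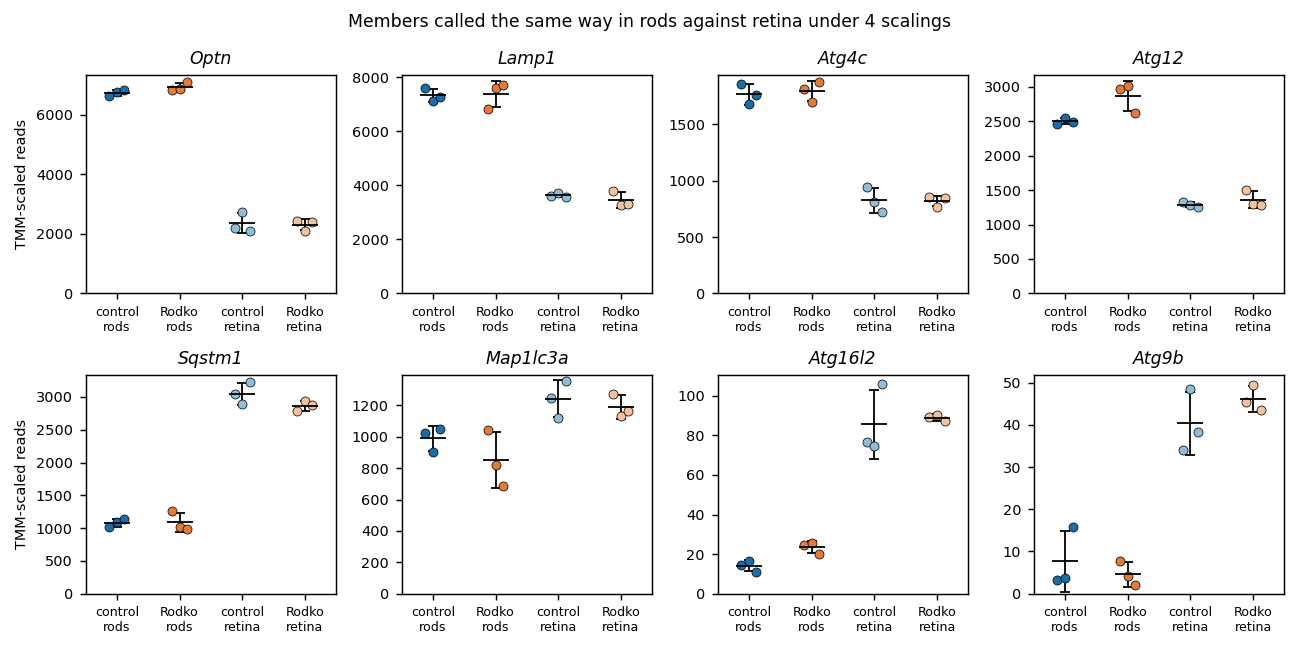
TMM-scaled reads (y axis, from 0) of the 8 genes with the same call under 4 scalings, for control rods, Rodko rods, control retina and Rodko retina. Points are libraries, and the horizontal mark and bars are the mean and SD of 3 libraries. Rod points sit higher than every retina point in the upper row (Optn, Lamp1, Atg4c, Atg12) and lower in the bottom row (Sqstm1, Map1lc3a, Atg16l2, Atg9b).

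The 2 cargo receptors went in opposite directions. Optineurin, encoded by Optn, binds ubiquitinated cargo and ATG8 proteins and is known for its role in the clearance of damaged mitochondria. TMM-scaled reads of Optn were 6633, 6781 and 6838 in control rods, 6844, 6869 and 7107 in Rodko rods, 2209, 2739 and 2113 in control retina and 2449.6, 2105 and 2389 in Rodko retina. Every rod library was above every retina library, in both genotypes. The log2 difference was 1.53 (SE 0.090, adjusted p = 1.31e-09) in control mice and 1.59 (SE 0.090, adjusted p = 6.34e-10) in Rodko mice, and it was 0.98 in control mice with total reads.

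Sqstm1 encodes p62, the receptor that binds ubiquitin chains and LC3 and is itself degraded with its cargo. Its levels were 1018, 1098 and 1132 in control rods, 1261, 1011 and 994 in Rodko rods, 3042, 2888 and 3224 in control retina and 2788, 2942 and 2872 in Rodko retina. The order was the reverse of that of Optn, and the fractions did not overlap. Rods were lower by a log2 difference of −1.49 (SE 0.090, adjusted p = 1.59e-09) in control and −1.41 (SE 0.090, adjusted p = 2.37e-09) in Rodko mice. Because both genes are read in the same library, their ratio per length needs no scaling between fractions. It was 4.87 ± 0.189 (SD, n = 3) in control rods and 5.03 ± 0.709 in Rodko rods, but 0.605 ± 0.119 in control retina and 0.630 ± 0.0655 in Rodko retina. Of the exon bases of Sqstm1, 17.3% lie opposite Mrnip, and whether counting used strand is not given in the sources used here.

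The bases before the start of these genes are shown because they moved in opposite directions between the fractions. They are RefSeq promoter sequence (GRCm38.p6), the 250 bases before the start on the gene's strand, at chr2:5064118-5064367 (minus strand) for Optn and chr11:50210821-50211070 (minus strand) for Sqstm1. Capitals mark TAATCC, the core bound by the photoreceptor factor CRX, and TGCTGA, the core of the site of the rod factor NRL, on either strand.
Optn: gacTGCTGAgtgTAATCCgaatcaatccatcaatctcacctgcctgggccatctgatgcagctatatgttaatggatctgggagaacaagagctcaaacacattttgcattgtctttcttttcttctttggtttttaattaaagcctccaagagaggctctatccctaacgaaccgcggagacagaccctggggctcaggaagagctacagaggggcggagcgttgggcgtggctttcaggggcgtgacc
Sqstm1: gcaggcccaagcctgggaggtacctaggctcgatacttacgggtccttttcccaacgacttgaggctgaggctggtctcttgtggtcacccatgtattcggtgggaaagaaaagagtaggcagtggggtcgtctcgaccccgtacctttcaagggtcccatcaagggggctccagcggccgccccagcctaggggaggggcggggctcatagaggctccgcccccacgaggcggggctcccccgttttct
The 29 genes of the list with an entry were searched for both words (Rb1cc1, Map1lc3a, Atg12, Becn1 and Atg16l1 have no entry). TAATCC was found in Optn, Atg4c, Atg7 and Atg9b (4 of 29, and 7.21% of 27025 genes with an entry), and TGCTGA in Optn, Atg13 and Lamp2 (3 of 29, and 18.0% of genes). In Optn the words begin 238 and 247 bases before the start, and neither is in the Sqstm1 window. Atg4c has 2 entries, of which 1 holds TAATCC, 82 bases before its start. Of the genes with the same call under all scalings, 2 of 3 higher ones with an entry hold TAATCC and 1 of 3 lower ones.

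LAMP1 and LAMP2 are the main glycoproteins of the lysosomal membrane, and LAMP2 takes part in the fusion of autophagosomes with lysosomes. Lamp1 reached 7608, 7138 and 7280.3 in control rods, 6830.0, 7587 and 7729 in Rodko rods, 3599.5, 3699 and 3579.5 in control retina and 3806, 3264 and 3292 in Rodko retina. The lowest rod library stood above the highest retina library. Rods were higher by 1.02 (SE 0.076, adjusted p = 1.49e-08) in control and 1.10 (SE 0.076, adjusted p = 5.13e-09) in Rodko mice, and by 0.47 and 0.51 with total reads.

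For Lamp2 the levels were 1778, 1750.0 and 1657 in control rods, 1658, 1849.9 and 1939.6 in Rodko rods, 1588, 1357 and 1688 in control retina and 1482, 1428 and 1429 in Rodko retina. The control fractions overlapped and the Rodko fractions did not. Its difference was 0.17 (SE 0.087, adjusted p = 0.106) in control and 0.32 (SE 0.087, adjusted p = 0.00429) in Rodko mice. With total reads it turned to −0.38 (adjusted p = 0.00176, limma) and −0.26 (adjusted p = 0.0208), called lower in both. In Rodko mice the calls were thus opposite between scalings. The ratio of Lamp1 to Lamp2 per length, which no scaling changes, was 6.87 ± 0.258 in control rods and 6.58 ± 0.118 in Rodko rods, against 3.83 ± 0.511 and 3.86 ± 0.256 in retina. Tfeb was sparse, with 115, 105 and 98.6 in control rods, 121, 113 and 99.6 in Rodko rods, 83.1, 90.9 and 113 in control retina and 118, 108 and 99.5 in Rodko retina. Its libraries overlapped across all groups, with a difference of 0.16 (SE 0.17, adjusted p = 0.426) in control mice.

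The Lamp1 promoter is shown because TFEB acts through a site built on CACGTG. Its 250 bases (RefSeq GRCm38.p6, chr8:13158911-13159160, plus strand) hold this word 4 times, in capitals, beginning 61, 45, 28 and 15 bases before the start.
Lamp1: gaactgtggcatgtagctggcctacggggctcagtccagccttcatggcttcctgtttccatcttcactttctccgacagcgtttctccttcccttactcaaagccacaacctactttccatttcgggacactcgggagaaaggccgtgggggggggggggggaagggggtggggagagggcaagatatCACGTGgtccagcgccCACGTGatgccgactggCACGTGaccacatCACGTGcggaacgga
CACGTG is its own reverse complement, so both strands are read at once. It was also found in Atg3, Atg5 and Atg7 (4 of 29 genes with Lamp1, and 6.86% of 27025 genes), and in the longer form TCACGTGA in Atg3 (0.907% of genes). A window with 4 or more copies was found in 5 of 27025 genes, or 0.0185%. Among the 29 genes the AP-1 word TGACTCA was in none (5.16% of genes), the CRE word TGACGTCA in Atg16l2 (1.77%), and CCAAT in 7 (37.5%). Such matches describe the sequence, and whether they are bound was not measured in these data.

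The ATG8 proteins, which are conjugated to phosphatidylethanolamine on the autophagosome, comprise an LC3 branch (Map1lc3a and Map1lc3b) and a GABARAP branch (Gabarap, Gabarapl1 and Gabarapl2). Map1lc3a was the ATG8 gene called lower in rods under all 4 scalings, with 1022, 901 and 1048 in control rods, 1045, 820.4 and 688 in Rodko rods, 1249, 1121 and 1357 in control retina and 1272, 1131 and 1166 in Rodko retina. No rod library reached the lowest retina library. The log2 difference was −0.33 (SE 0.13, adjusted p = 0.0354) in control and −0.50 (SE 0.13, adjusted p = 0.00269) in Rodko mice. In control mice the call was lost without control rods 1 or 2, Rodko rods 2, or control retina 1 or 3 (adjusted p from 0.0503 to 0.131, limma), while the difference stayed between −0.40 and −0.26.

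Gabarapl2 stood at 3401, 3437 and 3921 in control rods, 4025, 3614 and 3335 in Rodko rods, 2205, 2161 and 2097 in control retina and 1982, 1966 and 1977 in Rodko retina. Its lowest rod library was still well over its highest retina library. The difference was 0.73 (SE 0.079, adjusted p = 1.04e-06) in control and 0.88 (SE 0.079, adjusted p = 1.01e-07) in Rodko mice with TMM. With total reads it was 0.18 (adjusted p = 0.0544, limma) and 0.30 (adjusted p = 0.00349).

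Map1lc3b, the form used as the standard autophagosome marker, had 4611, 4245 and 5112 in control rods, 5149, 4759 and 4527 in Rodko rods, 3432, 3293 and 3447 in control retina and 3295, 3129 and 3202 in Rodko retina. Gabarapl1 had 5076, 5037 and 4835 in control rods, 5595, 5159 and 4547 in Rodko rods, 4275, 4174 and 3624 in control retina and 3957, 3640.4 and 3343 in Rodko retina. For both genes rods exceeded retina in every library on this scale, by 0.45 (SE 0.077, adjusted p = 0.000103) and 0.31 (SE 0.090, adjusted p = 0.00745) in control mice, but with total reads the differences were −0.10 and −0.24. Gabarap had 1621, 1229.9 and 1596 in control rods, 1578, 1409 and 1211 in Rodko rods, 1683, 1411 and 1678 in control retina and 1554, 1359 and 1349 in Rodko retina. Its fractions overlapped, with a difference of −0.11 (SE 0.12, adjusted p = 0.447) in control mice with TMM. With total reads Gabarap was called lower in both genotypes (−0.66 in control and −0.61 in Rodko mice).

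The share of each gene in the ATG8 reads per length of its own library does not depend on scaling. Over the 6 rod and 6 retina libraries, Gabarapl2 made up 24.8% ± 0.882 (SD) of the ATG8 reads in rods and 18.0% ± 0.619 in retina, and Map1lc3b 21.5% ± 0.928 and 19.0% ± 0.574. Map1lc3a made up 9.48% ± 1.02 in rods and 16.0% ± 0.995 in retina, and Gabarap 12.2% ± 0.952 and 16.2% ± 0.920. For these 4 genes no rod library overlapped a retina library, with p = 0.00216 in a two-sided exact permutation test, the smallest it can give (adjusted over the 5 genes, 0.00271). That test treats the 12 libraries as unpaired. With same-numbered rod and retina libraries as pairs, an exact sign-flip test gave an adjusted p of 0.03125 for each of the 4 genes. The shares sum to 100% and are therefore not independent of each other.

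Gabarapl1 was the largest of the ATG8 shares, at 31.9% ± 1.55 in rods and 30.7% ± 1.81 in retina, and the fractions overlapped (exact permutation p = 0.251). Within each pair of rod and retina libraries of the same number its share was higher in rods, by 1.16 percentage points on average (exact sign-flip test, adjusted p = 0.03125, the smallest that 6 pairs allow). Of its exon bases, 28.3% lie opposite another gene. The ratio of Map1lc3b to Map1lc3a per length was 2.06 ± 0.0805 in control rods, 2.53 ± 0.363 in Rodko rods, 1.20 ± 0.0871 in control retina and 1.19 ± 0.0425 in Rodko retina.

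**Figure D3:**
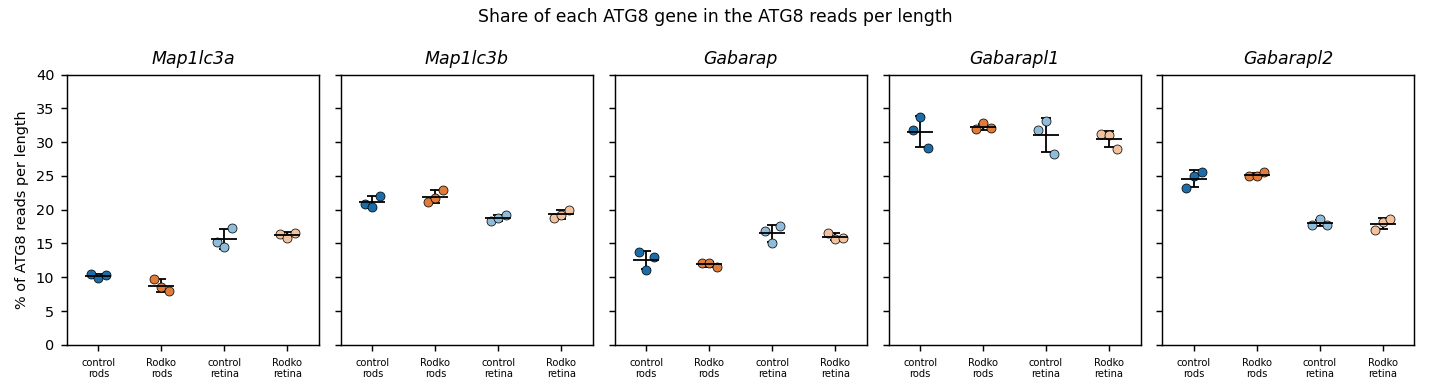
Share of each ATG8 gene in the ATG8 reads per length (y axis, percent, from 0) for 3 libraries in each of the 4 groups. Points are libraries, and the mark and bars are mean and SD. Gabarapl2 sits at 23.2% to 25.6% in rods and 17.0% to 18.6% in retina, and Map1lc3a at 7.94% to 10.5% and 14.5% to 17.3%.

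The ATG4 proteases trim new ATG8 proteins and release them from membranes. All 4 had positive differences with TMM. Levels of Atg4c were 1858, 1680.2 and 1758 in control rods, 1811, 1699 and 1875 in Rodko rods, 946, 813 and 725 in control retina and 853, 768 and 843 in Rodko retina. The rod libraries were all higher than the retina libraries. Rods were higher by 1.10 (SE 0.094, adjusted p = 7.43e-08) in control and 1.13 (SE 0.094, adjusted p = 4.50e-08) in Rodko mice, and by 0.55 and 0.54 with total reads. Atg4d had 977, 896 and 1078 in control rods, 1042, 917 and 934 in Rodko rods, 507, 536 and 568 in control retina and 657, 594 and 563 in Rodko retina. Its fractions did not overlap, and the difference was 0.87 (SE 0.095, adjusted p = 1.18e-06) in control and 0.67 (SE 0.095, adjusted p = 1.60e-05) in Rodko mice. With total reads it was 0.32 in control mice (adjusted p = 0.00721, limma) and 0.089 in Rodko mice (adjusted p = 0.414). Of its exon bases, 19.3% lie opposite Kri1. Atg4b, the most active of the family, was called higher with TMM (0.37 in control mice) and turned to −0.18 with total reads, and the sparse Atg4a was called with TMM only in the Rodko fit (0.48, against 0.21 in control mice).

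In the conjugation machinery, ATG7 acts as the activating enzyme, ATG3 and ATG10 as the conjugating enzymes, and ATG12, ATG5 and ATG16L1 form the complex that places ATG8 proteins on the membrane. Atg12 reached 2459, 2547 and 2491 in control rods, 2975, 3013 and 2618 in Rodko rods, 1326, 1290.1 and 1256 in control retina and 1503, 1292 and 1284 in Rodko retina. No rod library overlapped a retina library. The difference was 0.95 (SE 0.080, adjusted p = 5.76e-08) in control and 1.08 (SE 0.080, adjusted p = 1.17e-08) in Rodko mice, and 0.40 and 0.49 with total reads. Its partners Atg5, Atg16l1 and Atg3 were also called higher with TMM in both genotypes, by 0.55 to 0.70 in control mice, but none of the 3 under all scalings. Atg7 had 426, 450.3 and 456 in control rods, 436, 473 and 493 in Rodko rods, 433, 441 and 377 in control retina and 355, 366 and 348 in Rodko retina, so that the control fractions overlapped, and its difference was 0.093 (SE 0.095, adjusted p = 0.401) in control and 0.39 (SE 0.095, adjusted p = 0.0022) in Rodko mice. Atg10 was not called with TMM (−0.24 in control, 0.19 in Rodko mice), but with total reads it was called lower in control mice (−0.79). With total reads Atg7 was called lower in control mice as well (−0.46).

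Atg16l2, the less studied paralog of Atg16l1, was sparse in rods, with 14.7, 16.7 and 11.1 in control rods, 24.7, 25.8 and 20.1 in Rodko rods, 76.5, 74.7 and 106 in control retina and 89.1, 90.5 and 87.2 in Rodko retina. The highest rod library held less than the lowest retina library. The difference was −2.51 (SE 0.25, adjusted p = 4.58e-07) in control and −1.88 (SE 0.25, adjusted p = 9.41e-06) in Rodko mice, while Atg16l1 went the other way with TMM. Atg9b, a paralog of the membrane carrier Atg9a, had 3.27, 3.72 and 15.9 in control rods, 7.81, 4.07 and 2.01 in Rodko rods, 34.1, 48.6 and 38.4 in control retina and 45.4, 49.4 and 43.6 in Rodko retina, and its difference was −2.55 (SE 0.52, adjusted p = 0.000516) and −3.20 (SE 0.52, adjusted p = 5.86e-05). Both differences in control mice lay near those of markers of other retinal cells (medians −2.87 for Müller glia and −3.02 for ganglion cells). What part RNA of other cells had in their rod reads was not tested. Atg9a itself had 826 ± 80.8 TMM-scaled reads (SD, n = 3) in control rods and 768 ± 56.5 in control retina, and was not called with TMM but was called lower with total reads (−0.45). Of its exon bases, 32.6% overlap other genes, Gm29253 on the same strand and Ankzf1 opposite.

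ULK1 and ULK2 are the kinases of the initiation complex, and RB1CC1 (FIP200), ATG13 and ATG101 are its scaffold and regulators. Ulk1 had 1303, 1436 and 1355 in control rods, 1306, 1499.5 and 1346 in Rodko rods, 1358, 1557 and 1678 in control retina and 1642, 1784 and 1604 in Rodko retina. The control fractions overlapped and the Rodko fractions did not, with a difference of −0.16 (SE 0.089, adjusted p = 0.126) in control and −0.28 (SE 0.089, adjusted p = 0.0131) in Rodko mice, the latter lower under all scalings. In control mice Ulk1 missed the call with TMM alone of the 4 scalings, and was called lower with RLE (−0.22), total reads (−0.71) and the deposited values (−0.76). Ulk1 to Ulk2 per length was 0.838 ± 0.0656 in control rods and 1.09 ± 0.111 in control retina, with overlapping ranges over the 6 libraries of each fraction. Ulk2 differed by 0.22 (SE 0.096, adjusted p = 0.0603) in control mice with TMM. On that scale it was called with the library pair as a block (adjusted p = 0.0386, limma), while with total reads it was called lower (−0.33). Rb1cc1 had 1454, 1383 and 1245 in control rods, 1312, 1642 and 1942 in Rodko rods, 1201, 1331 and 1025 in control retina and 1089, 1275 and 1310.5 in Rodko retina and a difference of 0.20 (SE 0.13, adjusted p = 0.187), which was also called with the block (adjusted p = 0.0313, limma), but with total reads it was called lower (−0.35). Atg101 was called higher with TMM (0.80 in control, 0.88 in Rodko mice) but not with total reads (0.25 and 0.30), and Atg13 was called higher with TMM (0.25) but lower with total reads (−0.30).

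Becn1, which encodes Beclin 1, had 871, 838 and 946 in control rods, 933, 843 and 883 in Rodko rods, 846, 699 and 777 in control retina and 797, 786 and 714 in Rodko retina. The control fractions overlapped and the Rodko fractions did not, and the difference was 0.20 (SE 0.091, adjusted p = 0.0727) in control and 0.21 (SE 0.091, adjusted p = 0.0528) in Rodko mice. With the library pair as a block both were called (adjusted p = 0.0465 and 0.0315, limma), and with total reads the gene was called lower (−0.35 and −0.37). Of its exon bases, 43.9% lie opposite Cntd1. Atg14, which directs Beclin 1 to autophagosome formation, was called higher with TMM in control (0.47) and Rodko mice (0.71). With total reads Atg14 was called in neither (−0.077 and 0.13). The lipid transfer genes Atg2a and Atg2b and the PI3P-binding Wipi1 and Wipi2 were not called with TMM in either genotype, and their differences lay between −0.18 and 0.27 in control mice. With total reads all 4 were called lower in both genotypes, with differences in control mice of −0.73 for Wipi1, −0.64 for Atg2b, −0.51 for Wipi2 and −0.28 for Atg2a. Atg2a had 622, 537 and 569 in control rods, 505, 546 and 645 in Rodko rods, 441, 445 and 554 in control retina and 549, 556 and 595 in Rodko retina. Its fractions overlapped in both genotypes, and its difference in control mice was called with TMM and the block (adjusted p = 0.0252, limma).

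**Figure D4:**
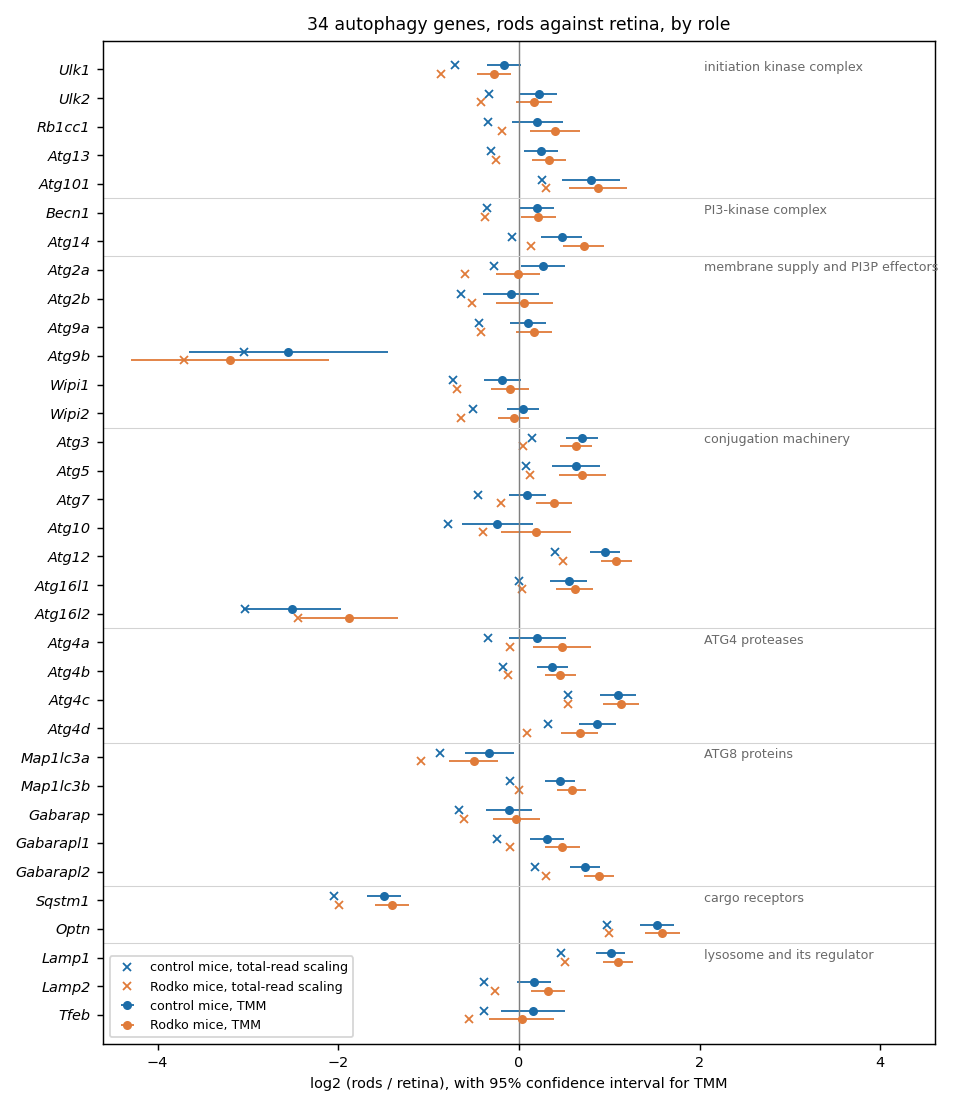
Log2 ratio of rods to retina (x axis) for the 34 genes, grouped by role, in control (blue) and Rodko mice (orange). Circles and bars are TMM values with 95% confidence intervals and crosses are values with total-read scaling. Optn is the highest (1.53 and 1.59 with TMM), and Atg9b, Atg16l2 and Sqstm1 are the lowest, to the left of 0 on both scales.

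Between genotypes, no gene of the list passed an adjusted p of 0.05 in rods or in retina (limma on log2 of the deposited value + 1). Over all genes 0.0194% passed in rods and 0.00391% in retina. At an unadjusted p under 0.05 there was 1 of the 34 in rods (4.77% of all genes) and 1 in retina (4.18%). edgeR's quasi-likelihood test and DESeq2 also called none of the 34. In rods 25 of the 34 differences were positive (51.1% of all genes), with a median of 0.043 against 0.0060 over all genes. In retina 15 were positive (49.0% of all genes), with a median of −0.0025 against −0.0045.

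The 95% confidence interval lay within a log2 difference of ±0.5 for 28 of the 34 genes in rods and 31 in retina, and within ±1 for 32 and 34. The median half-width was 0.24 in rods and 0.20 in retina. For Optn in rods the difference was 0.048 with an interval of −0.11 to 0.21, for Sqstm1 0.0087 (−0.23 to 0.24), for Lamp1 0.015 (−0.16 to 0.19), for Map1lc3b 0.058 (−0.14 to 0.25), for Ulk1 0.027 (−0.18 to 0.23) and for Becn1 0.011 (−0.20 to 0.22). Sparse genes had wider intervals, with Tfeb at 0.073 (−0.33 to 0.47) and Atg9b at −0.42 (−1.80 to 0.96).

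The smallest unadjusted p in rods belonged to Atg12. Its deposited values, which are reads divided by a size factor, were 1925, 1998 and 1931 in control and 2317, 2378 and 2061 in Rodko rods. Every Rodko library was above every control library, with an unadjusted p of 0.0345 (limma). The difference was 0.20 (SE 0.086, adjusted p = 0.932, limma). Atg16l2 followed with 11.5, 13.1 and 8.60 in control and 19.3, 20.4 and 15.8 in Rodko rods, from at most 20 reads in a library, and a difference of 0.70 (SE 0.36, adjusted p = 0.932, limma). Rb1cc1 had 1138, 1085 and 965 in control and 1022, 1296 and 1529 in Rodko rods. Its genotypes overlapped, with a difference of 0.25 (SE 0.13, adjusted p = 0.932, limma).

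Among the 32 genes with at least 10 reads in every rod library, Map1lc3a had the most negative difference, −0.23 (interval −0.52 to 0.067, adjusted p = 0.932, limma). Rodko and control rods did not overlap for 5 of the 34 genes, with Atg12, Atg16l2, Atg4a and Optn above and Atg3 below, while 9.89% of all genes did not overlap. No marker of another cell type passed the genotype test in rods, but most of their differences were negative. All 12 Müller glia markers had negative differences (median −0.35, none called), and their summed TMM-scaled reads ran from 11725 to 14874 in control rods and from 9634 to 11430 in Rodko rods. All 12 ganglion cell markers were negative as well (median −0.36), with sums of 1873 to 2350 and 1315 to 2060. Their part in the genotype differences of the autophagy genes was not tested.

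In retina Atg2a, a lipid transfer protein gene, had the smallest unadjusted p (0.0287). Its deposited values were 516, 528 and 655 in control and 649.8, 661 and 718 in Rodko retina. The lowest 2 were controls, but the third control library lay within the Rodko range, and the difference was 0.26 (SE 0.11, adjusted p = 0.947, limma). Atg7 had 508, 522 and 446 in control and 419.9, 435 and 419.6 in Rodko retina. All Rodko libraries were below the controls, by −0.21 (SE 0.099, adjusted p = 0.947, limma). Atg4d, the only gene of the list on the chromosome of Pkm (38.4 Mb from it), had 594, 635 and 672 in control and 778, 706 and 679 in Rodko retina. Here all Rodko libraries were above the controls, and the difference was 0.19 (SE 0.093, adjusted p = 0.947, limma). Gabarapl2 also had all its Rodko values below the controls, so 3 of 34 genes did not overlap against 9.29% of all genes. All 5 ATG8 genes had negative differences in retina, from −0.14 to −0.043, and none was called. Over all genes 49.0% were positive there. Sums of cell markers in retina also differed between genotypes, as given with the further lists below.

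Whether the genotype difference in rods departed from that in retina was tested as an interaction. No gene of the list passed with limma, edgeR or DESeq2, and 0% of all genes did so with limma. Pkm, the targeted locus, was not called either, at −0.54 (SE 0.10, unadjusted p = 9.07e-05, adjusted p = 0.978, limma). The lack of calls in this test is therefore weak evidence of equal effects. At an unadjusted p under 0.05 there was 1 gene of the list, Atg7 (0.30, SE 0.14, unadjusted p = 0.0446, adjusted p = 0.978, limma), against 4.41% of all genes. Its difference was 0.080 in rods and −0.21 in retina.

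**Figure D5:**
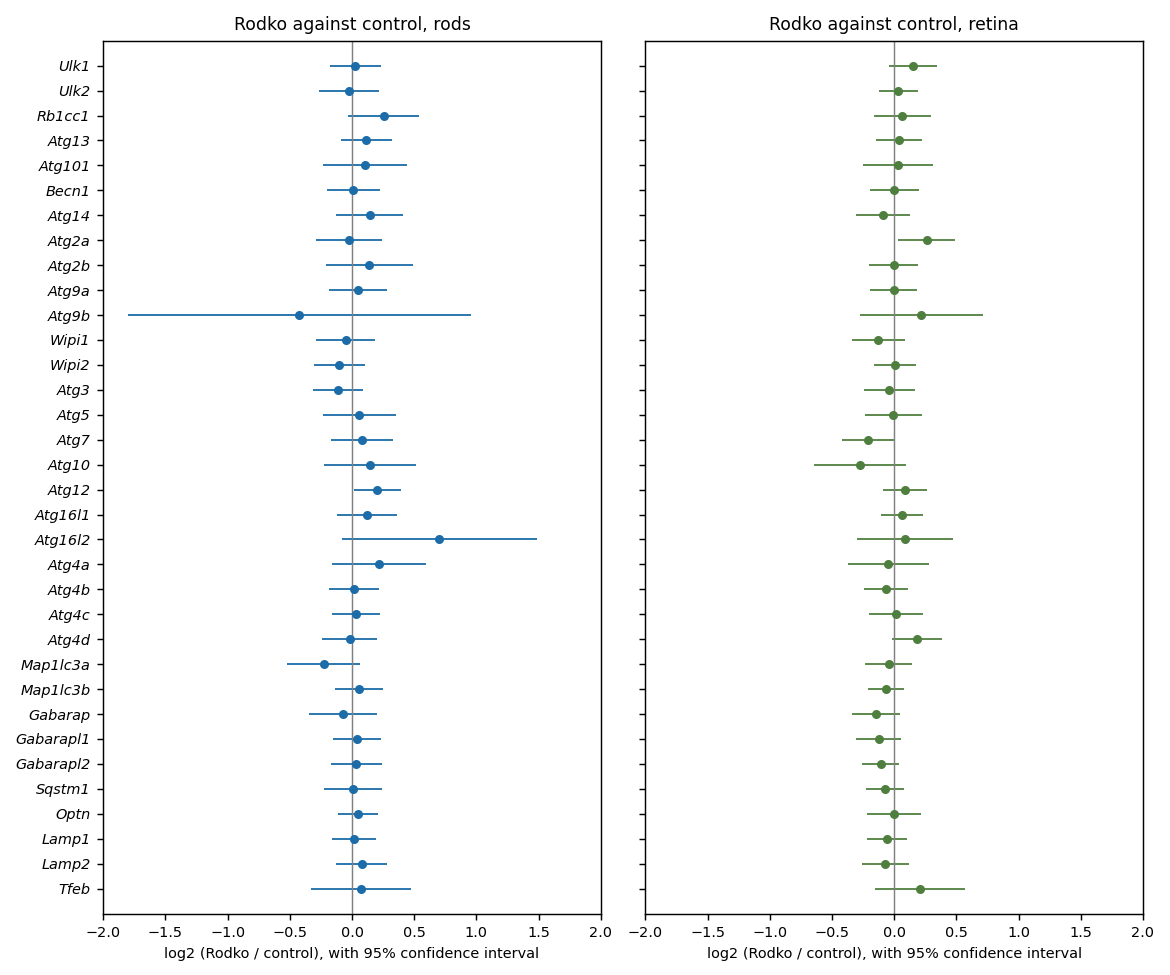
Log2 ratio of Rodko to control (x axis) for the 34 genes in rods (left) and retina (right), with 95% confidence intervals from limma on 3 against 3 libraries. Most points lie near 0. In rods Atg9b (−0.42) and Atg16l2 (0.70) have the widest intervals.

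The rest of the pathway was read from 5 lists of 61 further genes, all of them tested. No gene of these lists passed an adjusted p of 0.05 between genotypes in rods or retina. Against retina in control mice, 37 of the 61 were higher in rods and 9 lower with TMM (24.6% and 37.3% of all genes). Of the 13211 genes with at least 10 reads in every library, 5911 were higher and 3811 lower. With total reads 15 were higher and 26 lower (9.02% and 52.1%). Under all 4 scalings 13 were higher and 9 lower in control mice, and 16 and 4 in Rodko mice. Counts for each list below are for control mice. The shares of 7.12% and 33.8% of genes given above require both genotypes, and none was computed for 1 genotype alone. Other initiation, PI3-kinase and phagophore genes had 7 higher and 1 lower of 11 with TMM, 3 and 5 with total reads, and 2 and 1 under all scalings. Regulators of mTORC1, the kinase complex that restrains ULK1, had 8 higher and 0 lower of 11 with TMM but 3 and 3 with total reads, where Mtor, Tsc1 and Sesn2 were lower. The 3 regulators higher under all scalings were Ddit4, Sesn1 and Flcn. Fusion genes had 7 higher and 4 lower of 13 with TMM, 1 and 6 with total reads, and 1 and 4 under all scalings.

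Among the other cargo receptors 6 of 10 were higher and 1 lower with TMM, 4 and 5 with total reads, and 4 and 1 under all scalings. Tax1bp1, a ubiquitin-binding receptor related in function to optineurin, was higher with TMM by 1.35 (SE 0.12, adjusted p = 1.22e-07, limma), and the receptor for the endoplasmic reticulum Tex264 by 1.23 (SE 0.080, adjusted p = 3.66e-09). The TFEB family and lysosomal genes had 9 higher and 3 lower of 16 with TMM, 4 and 7 with total reads, and 3 and 3 under all scalings. Npc1, which exports cholesterol from lysosomes, was higher by 1.36 (SE 0.10, adjusted p = 1.59e-08). Lower were Mitf, a relative of Tfeb (−1.56, SE 0.23, adjusted p = 2.35e-05), the fusion syntaxin Stx17 (−1.05, SE 0.11, adjusted p = 4.81e-07) and the lysosomal glucosidase Gaa (−0.58, SE 0.079, adjusted p = 1.18e-05). These 6 genes had the same direction in Rodko mice and kept their call under all scalings in control mice. In Rodko against control retina all 16 genes of the last list had negative differences (median −0.10), none of them called. Over all genes 49.0% were positive there and the median was −0.0045. Summed TMM-scaled reads of Müller glia markers ran from 83994 to 96653 in control and 77317 to 84018 in Rodko retina. For cone markers they ran from 23377 to 25333 and 21197 to 22234, and for bipolar markers from 19445 to 20238 and 15225 to 19213. Rod marker sums ran from 1151494 to 1345429 and 1243730 to 1388928. The part of such shifts in the retina differences was not tested.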

How the data were processed

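RNA of 12 libraries (3 per group) was sequenced. The deposited values, made by the authors, are a signal for each gene, the reads divided by a size factor that was computed separately for rods and for retina. The submitters' processing notes name CASAVA 1.8.2, HISAT2, DESeq2, edgeR and the build GRCm39. The strand setting of the counting is not given in the sources used here. The value of 1 read was found in each library from its low values, and 100% of positive values were whole reads within 0.06, so reads were recovered. TMM takes most genes not to differ, yet with it 24.6% of genes were called higher and 37.3% lower in rods in control mice. RNA of other cells is not corrected.

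Genotypes were compared in each fraction with limma 3.58.1 (R 4.3.3, variance trend) on log2(deposited value + 1). Rods and retina were compared in 1 limma fit of all 12 libraries on log2(TMM-scaled reads + 1). A fold of a low gene is understated on this scale. Genes with a mean of at least 1 in a group were tested, and calls were made at a Benjamini-Hochberg adjusted p of 0.05. Alternatives were edgeR 4.0.16, DESeq2 1.42.0, other scalings, filters and a pseudocount of 0.1, and each library left out. Same-numbered rod and retina libraries deviated together over genes (r from 0.145 to 0.344 for 6 of 6 pairs), so the labels' numbers were taken as pairs and used as a block in an alternative. Lengths came from GENCODE vM21 and promoters from RefSeq. Scripts used Python 3.11.15, numpy 2.4.6, pandas 2.3.3, scipy 1.17.1 and matplotlib 3.10.9, and the fits were tested on simulated data. The simulated rods and retina differed only in the genes set to change, so that test cannot judge the scaling between the real fractions.

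The genes, gene lists, motif words and tests were chosen with earlier results of these data known. Values in every library are given for the 5 ATG8 genes, Sqstm1, Optn, Lamp1, Lamp2, Tfeb, Ulk1 and Becn1, for genes called between genotypes, for the 3 smallest unadjusted p-values of each genotype comparison, and for up to 5 higher and 5 lower genes between rods and retina called in both genotypes. Of the further lists, 3 higher and 3 lower genes are named.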

Additional observations from a re-analysis of the deposited data

How the results depend on the processing

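No gene of the list was called between genotypes, in rods, in retina or as an interaction, under any alternative run, including edgeR, DESeq2, other filters, the replicate block and each library left out. The depth, 13458890 to 22790074 reads per library, limited Atg9b and Atg16l2 in rods. For rods against retina in control mice, 15 higher and 4 lower genes became 5 and 19 with total reads and 5 and 22 with the deposited values, and 2 were lower where at least 10 reads were required in every library, which drops Atg9b and Atg16l2. In Rodko mice 19 higher and 5 lower became 5 and 16 with total reads and 5 and 16 with the deposited values. The scaling itself is what differs in these fits. Leaving out 1 library at a time gave 14 to 17 higher and 3 to 4 lower in control mice, and 18 to 20 and 4 to 5 in Rodko mice. Of genes called on either scale, positive TMM differences turned negative with total reads in control mice for Ulk2 −0.33, Rb1cc1 −0.35, Atg13 −0.30, Becn1 −0.35, Atg14 −0.077, Atg2a −0.28, Atg9a −0.45, Wipi2 −0.51, Atg7 −0.46, Atg4b −0.18, Map1lc3b −0.097, Gabarapl1 −0.24 and Lamp2 −0.38. Of genes called on either scale, positive TMM differences turned negative with total reads in Rodko mice for Ulk2 −0.42, Rb1cc1 −0.18, Atg13 −0.25, Becn1 −0.37, Atg2b −0.52, Atg9a −0.42, Atg7 −0.19, Atg4a −0.10, Atg4b −0.13, Map1lc3b −0.0021, Gabarapl1 −0.10, Lamp2 −0.26 and Tfeb −0.55. Of genes called on either scale, positive TMM differences turned negative with the deposited values in control mice for Ulk2 −0.38, Rb1cc1 −0.39, Atg13 −0.35, Becn1 −0.40, Atg14 −0.12, Atg2a −0.33, Atg9a −0.49, Wipi2 −0.55, Atg7 −0.50, Atg16l1 −0.043, Atg4a −0.38, Atg4b −0.22, Map1lc3b −0.14, Gabarapl1 −0.28, Lamp2 −0.43 and Tfeb −0.43. Of genes called on either scale, positive TMM differences turned negative with the deposited values in Rodko mice for Ulk2 −0.44, Rb1cc1 −0.20, Atg13 −0.27, Becn1 −0.39, Atg2b −0.54, Atg9a −0.44, Atg7 −0.21, Atg4a −0.12, Atg4b −0.14, Map1lc3b −0.021, Gabarapl1 −0.12, Lamp2 −0.28 and Tfeb −0.57. With the library pair as a replicate block the counts were 19 higher and 4 lower in control and 20 and 5 in Rodko mice, and calls changed only for the genes named with it above (Ulk2, Rb1cc1, Becn1 and Atg2a). Between genotypes the numbers do not pair the libraries (r from −0.227 to 0.0713 for same-numbered pairs), and the replicate block gave 0 genes of the list in each fraction.

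Single libraries moved calls of genes near the threshold. In control mice the TMM call of Atg13 was lost without control rods 1 (adjusted p = 0.0527, limma) or 3 (0.0801) and without control retina 1 (0.0639) or 2 (0.0514). In Rodko mice the call of Ulk1 was lost without Rodko retina 2 (adjusted p = 0.0604, limma) and that of Rb1cc1 without Rodko rods 3 (0.0746) or Rodko retina 1 (0.0758). Calls of Optn, Lamp1, Atg4c, Atg12, Sqstm1, Atg16l2 and Atg9b held without any 1 library.

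For the ATG8 shares, leaving out 1 library gave differences of rods minus retina of −6.78 to −6.18 percentage points for Map1lc3a, 2.19 to 2.70 for Map1lc3b, −4.30 to −3.74 for Gabarap, 0.649 to 1.73 for Gabarapl1 and 6.66 to 7.20 for Gabarapl2. In the 3 control libraries of each fraction the differences were −5.45, 2.31, −3.92 and 6.54 for Map1lc3a, Map1lc3b, Gabarap and Gabarapl2 (adjusted p = 0.125 each, exact permutation test), since 3 against 3 cannot go below 0.1. Gabarapl1 passed with the replicate block (1.16, adjusted p = 0.03125, exact sign-flip test) and, in an alternative chosen after seeing the data, with the exon union length (2.61, adjusted p = 0.0498, exact permutation test). By reads not divided by length its difference was −0.12 (adjusted p = 0.900). The cause of these shifts was not tested.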
